A study of Mus musculus with 4 samples.

Results

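Matrix Gla protein (Mgp) and 9 further regulators of vascular calcification, Spp1, Bglap, Enpp1, Alpl, Bmp2, Bmp4, Ahsg, Runx2 and Gas6, were followed in the mouse aorta after chronic treatment with rosiglitazone. They were taken by name, through all array probe sets whose only listed gene symbol was that of a member. This gave 9 probe sets for 6 genes, Mgp, Gas6, Ahsg, Alpl, Bmp2 and Bmp4, among 8251 genes named on the array. No probe set is listed under a single symbol for Spp1, Bglap, Enpp1 or Runx2, under these names or their older ones, and these 4 genes were not analysed here. The group of genes was drawn up with the difference between the treated and untreated arrays already known. Values of the members for that difference are therefore given as a description, and where a member is counted in the fit over all probe sets, nothing is read from that count.

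RNA was pooled from aortas of adult male C57BL/6J mice and hybridised to 4 oligonucleotide arrays. The rosiglitazone group (arrays 1 and 2) received 25 mg/kg per day of the drug, a thiazolidinedione that activates the nuclear receptor PPAR gamma, for 21 days. The vehicle group (arrays 3 and 4) received vehicle over 21 days. Nothing in the labels tells whether the pair of arrays in each group came from different pools of mice, or how many mice a pool held, so the spread between them may be technical.

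Calcification of the arterial wall is the deposition of calcium phosphate mineral in the media or intima, and it is restrained by proteins that the wall itself secretes. Mgp is such a protein. It is a small matrix protein made largely by vascular smooth muscle cells and chondrocytes, it needs vitamin K-dependent carboxylation of glutamate residues for its activity, it binds bone morphogenetic proteins (BMPs), and mice without it calcify their arteries. Pyrophosphate made by Enpp1 inhibits mineral growth, tissue-nonspecific alkaline phosphatase (Alpl) removes pyrophosphate, and BMP signals together with the transcription factor Runx2 promote bone-like gene expression in smooth muscle cells.

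Mgp was lower on both arrays of rosiglitazone-treated aortas. Its probe set (93866_s_at) had intensities, in arbitrary linear units, of 6773 and 6199 in treated aortas, compared with 15047 and 17439 under vehicle. The groups did not overlap, and the arrays of each group lay close together. The mean log2 intensity was 12.66 ± 0.09 under rosiglitazone, as against 13.98 ± 0.15 under vehicle (SD, n = 2 per group). The log2 difference was -1.32 with a standard error of 0.21 (limma), a level 2.50-fold lower with rosiglitazone. With any 1 array left out the difference lay between -1.43 and -1.22, and with another scaling between -1.39 and -1.24. Of all probe sets tested, 242 of 7134, or 3.39%, had a log2 difference as low as that of Mgp or lower.

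Gas6, the other Gla protein measured, is a ligand of the receptor tyrosine kinases Axl, Tyro3 and Mertk that promotes survival of smooth muscle cells. Its intensities (99067_at) were 2764 and 1764 under rosiglitazone and, under vehicle, 3049 and 2348. The groups overlapped, since rosiglitazone array 1 lay above vehicle array 4. The log2 difference was -0.28 with a standard error of 0.32, and it turned to 0.05 without rosiglitazone replicate 2.

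Bmp4, a secreted BMP ligand that promotes osteogenic differentiation and is bound by Mgp, was read by 2 probe sets. The brighter one (93455_s_at) had intensities of 4753 and 4728 on the rosiglitazone arrays against 6507 and 5680 on the vehicle arrays. The groups did not overlap, but the gap was small, with a log2 difference of -0.36 and a standard error of 0.23. The dimmer one (93456_r_at) had 496 and 375 in treated aortas, compared with 793 and 1175 under vehicle. It too was lower on both rosiglitazone arrays, with a log2 difference of -1.16 and a standard error of 0.57. The probe sets thus gave the same direction and sizes of 1.28-fold and 2.24-fold on the respective probe sets. The direction held in all 12 alternatives of filter, floor, scaling, trend and arrays for each of them. The groups did not overlap, so only the alternatives of scaling could have reversed it. With these the difference ran from -0.39 to -0.28 for the brighter probe set and from -1.08 to -1.07 for the dimmer one.

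Bmp2, the closest relative of Bmp4 and an inducer of bone formation, was dim throughout. Its probe set 102559_at had 235 and 53 under rosiglitazone and, under vehicle, 105 and 60, so that 3 of 4 arrays lay under 148, the 20th percentile of all values, which served as the floor below which intensities were not told apart. Probe set 161118_r_at had 220 and 26 on the rosiglitazone arrays against 343 and 108 on the vehicle arrays. Probe set 161901_r_at had 22 and 464 in treated aortas, compared with 534 and 449 under vehicle. On each of the 3 probe sets the rosiglitazone arrays differed from each other by more than the group means did, and no difference in Bmp2 was detectable at these intensities.

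Alpl, the phosphatase that hydrolyses pyrophosphate, differed within each group far more than between them. Its intensities (92796_at) were 1018 and 147 under rosiglitazone and, under vehicle, 885 and 42. Array 1 and array 3 were high, array 2 and array 4 were under the floor, and the groups overlapped. The log2 difference of 0.10 changed sign in 2 of the 12 alternatives, both of which left out 1 array.

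Ahsg encodes fetuin-A, a plasma protein secreted mainly by the liver that keeps calcium phosphate in solution. Its intensities (99862_at) were 136 and 149 on the rosiglitazone arrays against 233 and 135 on the vehicle arrays, under the floor on 2 of 4 arrays and overlapping. The defining hepatocyte marker Alb had 481 and 911 in treated aortas, compared with 588 and 846 under vehicle. Of 9 hepatocyte markers measured, 3 passed the intensity filter described below and 1 lay under the floor on all 4 arrays. Their summed intensity ran from 2575 to 3190 with rosiglitazone and from 3261 to 3408 with vehicle.

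**Figure D1:**
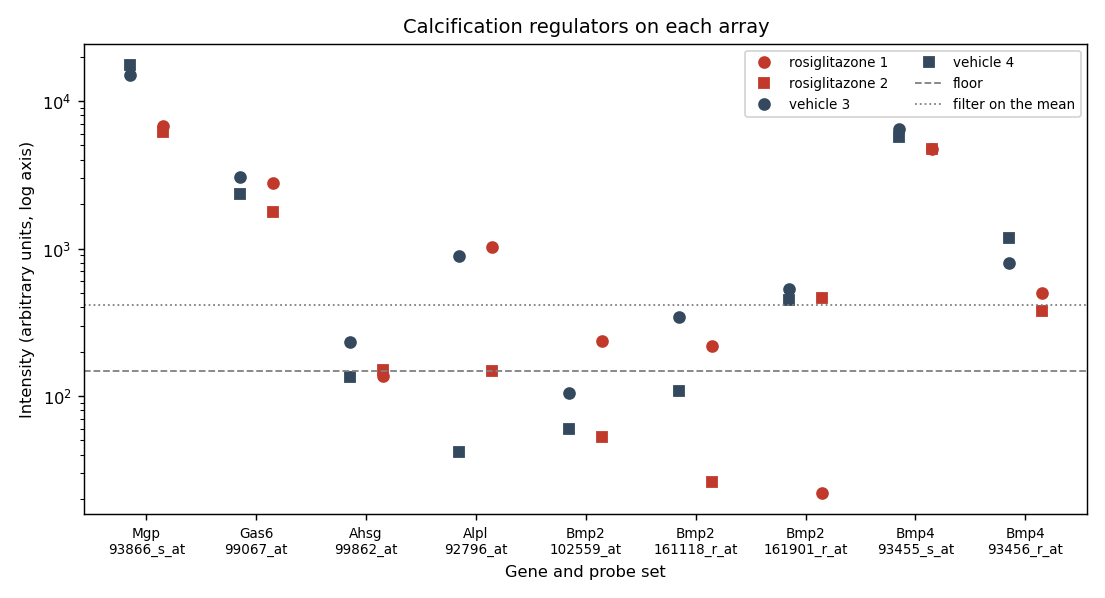
Intensity of each of the 9 member probe sets on each of the 4 arrays, on a log axis, with vehicle in dark blue and rosiglitazone in red; the dashed line is the floor of 148 and the dotted line the filter of 414. The groups are apart for Mgp and for both probe sets of Bmp4, and many points of Bmp2, Alpl and Ahsg lie under the floor.

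A filter kept probe sets whose mean log2 intensity was at or above that of an intensity of 414, the 40th percentile of all values. Of the 9 member probe sets 4 passed it, those of Mgp, Gas6 and Bmp4, and the other 5 did not. Of these 4, that of Mgp passed an adjusted p of 0.05 in limma, lower with rosiglitazone, where 0.322% of the 7134 probe sets tested were called lower and 0.364% were called in either direction. Mgp and both Bmp4 probe sets had groups that did not overlap with rosiglitazone lower, as did 21.8% of all probe sets tested. Nothing is read from these counts, since the genes were chosen with the same difference known. Of the alternatives, the floor at the 40th percentile also removed the filter, since every non-control probe set then passed it. The Mgp call was kept in 6 of 12 alternatives. It was lost without vehicle replicate 3 (log2 difference -1.43) and without vehicle replicate 4 (-1.22), where a single vehicle array is assumed to vary like the other group, and with each array centred on its median (-1.24), without the filter, with a floor at the 40th percentile or without the intensity trend, the last 3 at a difference of -1.32.

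**Figure D2:**
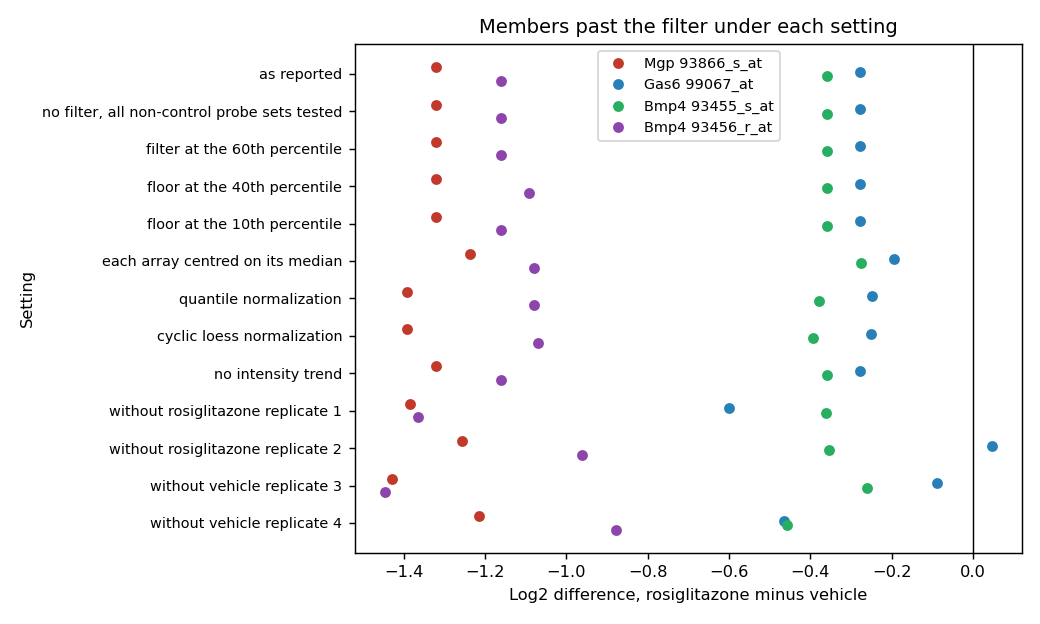
Log2 difference (rosiglitazone minus vehicle) of the 4 member probe sets that passed the filter, under the reported setting and each of the 12 alternatives. Mgp stays between -1.43 and -1.22, while Gas6 crosses 0 without rosiglitazone replicate 2.

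Among the measured members, Mgp and Bmp2 had no upstream sequence available here. The others differ in what lies upstream of their start sites. The sequences of the 250 bases before the start site were taken from RefSeq (GRCm38.p6) for Bmp4 and Gas6, the members besides Mgp whose probe sets passed the filter and the ones whose groups were apart and overlapping, respectively. Capitals mark GC boxes, GGGCGG or its reverse complement, a motif bound by Sp1-type factors.

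Bmp4, chr14:46390670-46390919, minus strand: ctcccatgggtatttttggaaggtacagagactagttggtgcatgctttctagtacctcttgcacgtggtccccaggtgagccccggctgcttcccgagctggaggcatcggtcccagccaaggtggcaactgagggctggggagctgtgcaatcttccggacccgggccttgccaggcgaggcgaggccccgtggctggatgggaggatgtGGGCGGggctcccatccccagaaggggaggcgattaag

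Gas6, chr8:13494536-13494785, minus strand: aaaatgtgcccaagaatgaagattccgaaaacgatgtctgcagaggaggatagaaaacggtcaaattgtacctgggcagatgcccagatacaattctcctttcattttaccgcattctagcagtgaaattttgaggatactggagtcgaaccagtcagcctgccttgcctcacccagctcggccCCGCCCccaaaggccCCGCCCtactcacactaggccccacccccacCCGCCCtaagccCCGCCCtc

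The Bmp4 window held 1 GC box and the Gas6 window 4, and 32.7% of the 32851 windows of this length in the table held at least 1. The PPAR response element was searched as a direct repeat of the nuclear receptor half-site with 1 base between the repeats, AGGTCANAGGTCA, on both strands. It had a match in none (0) of the 5 windows of Alpl, Gas6, Bmp4 and Ahsg and in 0.0335% of all windows. At so low a share, the lack of a match in 5 windows tells nothing about the members. Mgp and Bmp2 had no window to search. The half-site alone, AGGTCA, which the repeat contains, was found in 1 of the 5, an Alpl window, and in 14% of all windows. The RUNX motif AACCACA was in none (0) of the 5 and in 4.4% of all windows. A match or its lack describes these letters in this window and says nothing of binding.

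Markers of several cell types differed between the groups along with Mgp. Markers of smooth muscle cells, which fill the aortic media, were lower in 7 of 7 measured, with a median log2 difference of -1.26 against -0.02 over all probe sets tested. Their summed intensity, most of it Acta2, ran from 52596 to 56059 with rosiglitazone and from 110430 to 132927 with vehicle. Among them Smtn passed the filter through the vehicle arrays (mean log2 intensity 10.73) and was below it with rosiglitazone (8.29). The smooth muscle myosin heavy chain Myh11 had a log2 difference of -1.55, smooth muscle actin Acta2 -1.12 and calponin Cnn1 -1.33, beside -1.32 for Mgp. In bulk tissue, fewer cells of a type and less RNA per cell cannot be told apart. Fibroblast markers were below 0 in 8 of 8, with a median of -0.58 and the proteoglycan Dcn at -0.59. Their sums, mostly Dcn, ran from 88921 to 104961 with rosiglitazone and from 133319 to 159084 with vehicle. Chondrocyte markers, of cells that also make Mgp, were dim and 3 of 5 passed the filter, with Col2a1 at -0.12, Acan at 0.71 and Col9a1 at -0.51. Their sums of 2875 to 3432 with rosiglitazone and 2471 to 3139 with vehicle overlapped.

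Of the endothelial markers 5 of 7 lay below 0 (median -0.37), and of the macrophage markers 10 of 10 (median -0.97). The largest endothelial difference went the other way, Cldn5 at 1.45, with 4315 and 3704 under rosiglitazone and 1555 and 1369 under vehicle. The macrophage markers Adgre1 and Msr1 passed the filter through the vehicle arrays (mean log2 intensity 9.17 and 8.78). With rosiglitazone they were below it (8.31 and 8.63). Macrophage sums ran from 22285 to 22575 with rosiglitazone and from 61549 to 65903 with vehicle, endothelial sums from 13546 to 15793 and from 14652 to 18988. The largest part of the macrophage sums with vehicle was Cd14, at 27529 and 26830. With rosiglitazone Cd14 had 3496 and 3642, a log2 difference of -2.93. Neutrophil markers had 5 of 6 below 0 with a median of -0.67 and erythrocyte markers 3 of 5 with a median of -0.73. Neutrophil sums ran from 5573 to 6491 with rosiglitazone and from 126526 to 193130 with vehicle, erythrocyte sums from 507139 to 669608 and from 563914 to 658396. S100a8 and S100a9 made up most of the neutrophil sums with vehicle, at 76047 and 131937 and at 45381 and 55514. With rosiglitazone they had 755 and 1883 and 936 and 1199. Of the other neutrophil markers past the filter, Camp had a log2 difference of -0.81, and Elane (-0.47), Mpo (-0.52) and Ltf (0.12) overlapped. Most of the erythrocyte sums was Hba-a1, with a log2 difference of 0.02. Brown adipocyte markers went the other way, with 1 of 7 below 0 and a median of 0.44. Their sums, mostly Cidea, ran from 412321 to 450320 with rosiglitazone and from 291518 to 296339 with vehicle. White adipocyte markers had 3 of 4 below 0 with a median of -0.16, at sums of 174589 to 205250 and of 136739 to 148524. Adipoq, the 1 above 0, made up most of these sums, at 165554 and 195068 with rosiglitazone and 125080 and 136822 with vehicle. Of the osteoblast markers 2 of 4 passed the filter, with bone sialoprotein Ibsp at 0.17 and Col1a1 at -0.26, and their sums of 6104 to 9331 and of 7953 to 9544 overlapped. Without rosiglitazone replicate 1 the median was -0.15 for endothelial, -0.45 for erythrocyte and 0.11 for white adipocyte markers, and the erythrocyte median was -0.43 without vehicle replicate 4. The ratio of 3' to 5' signal ran from 7.74 to 9.62 for actin and from 8.79 to 10.8 for Gapdh with rosiglitazone, against 8.88 to 11.9 and 11.1 to 11.1 with vehicle. Signal was thus several times stronger at the 3' end on every array, a limit of all values here. For Gapdh the ratio was lower on both rosiglitazone arrays than on the vehicle arrays. The part of these differences in the value of Mgp was not tested.

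**Figure D3:**
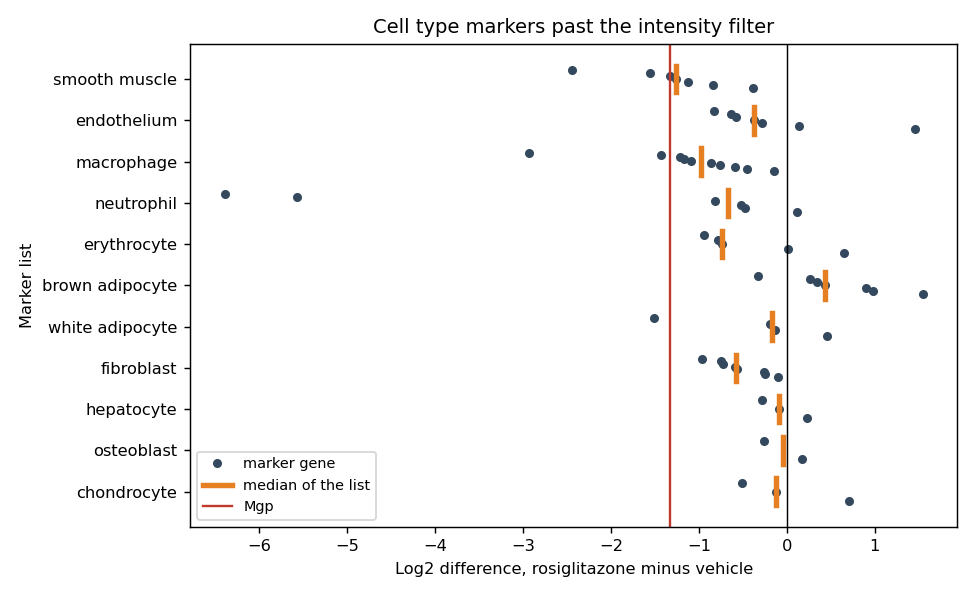
Log2 difference (rosiglitazone minus vehicle) of each marker gene that passed the filter, 1 row per cell type, with the median of each list in orange and Mgp as a red line. The smooth muscle median of -1.26 lies beside Mgp at -1.32, and brown adipocyte markers have a median of 0.44.

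The probe sets whose pattern over the 4 arrays was most like that of Mgp were found by the root mean square difference between log2 intensities, after subtraction of the mean of each probe set over the arrays, among 6392 candidates with 1 symbol. The 5 closest were Akap12, a scaffold of protein kinase A, at 0.0783, Cpe, a carboxypeptidase of prohormone processing, at 0.0847, Anxa1, the phospholipid-binding annexin A1, at 0.0933, Rdh13, a retinol dehydrogenase, at 0.0987, and Cnn3, an actin-binding calponin, at 0.102. Akap12 had intensities of 258 and 264 under rosiglitazone and, under vehicle, 654 and 687. Its mean log2 intensity with rosiglitazone was 8.03, below the filter, so it was a candidate only through the vehicle arrays (9.39). Anxa1 had 2910 and 2863 on the rosiglitazone arrays against 6350 and 8666 on the vehicle arrays. Cnn3 had 2403 and 2516 in treated aortas, compared with 5682 and 5859 under vehicle. Likeness over 4 arrays is set mostly by the gap between the groups, and the 5 had log2 differences from -1.36 to -1.23.

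**Figure D4:**
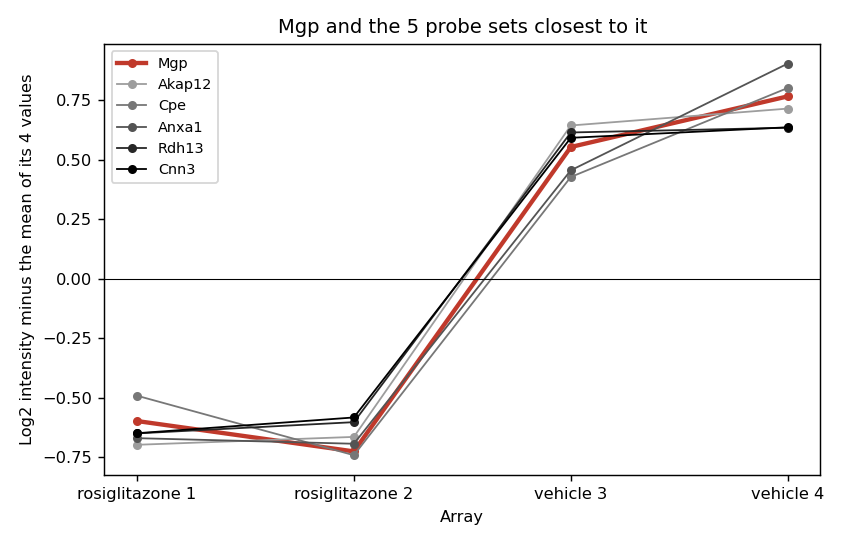
Log2 intensity on each of the 4 arrays minus the mean of its 4 values, for Mgp (red) and the 5 probe sets closest to it (grey to black); lines only join the points of a gene. All 6 are below their mean on both rosiglitazone arrays and above it on both vehicle arrays.

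Of 110 further genes of the pathway, listed by role, 81 were measured and 45 passed the filter, each counted by its brightest probe set. None (0) of the 45 passed an adjusted p of 0.05 in limma, against 0.364% of all probe sets tested, and 7 had an unadjusted p under 0.05, or 15.6% against 10.9% of all. Of these 7 genes, 5 were lower and 2 higher with rosiglitazone. In all 28 of 45 lay below 0, or 62.2% against 51.9% of all probe sets tested, with a median of -0.12 against -0.02. Without rosiglitazone replicate 2 this lean was gone, with 22 of 45 below 0 and a median of 0.04. The groups did not overlap for 14 genes lower with rosiglitazone, 31.1% against 21.8% of all, and for 7 genes higher, 15.6% against 19% of all. These counts include genes that passed the filter only through the group where they were high. The smallest adjusted p in limma was 0.105, and 1 gene, Nbl1, passed without rosiglitazone replicate 1.

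Of the 4 genes of Gla protein carboxylation measured, the 2 that passed the filter had differences near 0. Vkorc1, the vitamin K epoxide reductase that regenerates the cofactor of Mgp carboxylation, had 11237 and 11344 under rosiglitazone and, under vehicle, 9692 and 11854, a log2 difference of 0.07 with a standard error of 0.21. Calu, the calumenin that inhibits the carboxylase, had -0.02. The carboxylase Ggcx itself did not pass the filter, at 384 and 69 on the rosiglitazone arrays against 123 and 337 on the vehicle arrays. Nqo1 did not pass the filter either, with log2 differences of 0.59 and -0.58 on its 2 probe sets. None (0) of the 2 genes of this list past the filter had groups apart. Of all probe sets tested, 21.8% were lower and 19% higher with groups apart, so nothing is read from this count.

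Among other Gla proteins and the receptors of Gas6, 5 genes passed the filter. For Tyro3, F10 and Proc, whose groups were apart, the mean log2 intensities with rosiglitazone were 7.61, 8.05 and 8.60, below the filter, so they passed it through the vehicle arrays (10.01, 9.78 and 9.62), which favours a difference. Tyro3 had 257 and 132 in treated aortas, compared with 936 and 1129 under vehicle, a log2 difference of -2.40 ± 0.75 (standard error; limma, adjusted p = 0.265), with 1 rosiglitazone array at the floor. Its other probe set, 96766_s_at, had -0.83 with overlap and did not pass the filter. The clotting factor F10 had -1.73 (limma, adjusted p = 0.47, 1 rosiglitazone array at the floor) and protein C (Proc) had -1.02 (limma, adjusted p = 0.671). Without rosiglitazone replicate 1 these were -0.89 and -0.17, and without rosiglitazone replicate 2 they were -2.58 and -1.86. The second probe sets of F10 and Proc did not pass the filter and had 0.05 and -0.13. Pros1, a further ligand of Tyro3 and Mertk, had 0.12. Axl had 177 and 565 under rosiglitazone and, under vehicle, 276 and 930, and Mertk had 792 and 340 on the rosiglitazone arrays against 385 and 178 on the vehicle arrays. Both overlapped and did not pass the filter.

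Of the genes of phosphate and pyrophosphate handling 1 of 8 measured passed the filter. It was the parathyroid hormone receptor Pth1r, with 775 and 625 in treated aortas, compared with 177 and 620 under vehicle. The log2 difference of 1.07 (limma, adjusted p = 0.688) ran from 0.17 without vehicle replicate 3 to 1.98 without vehicle replicate 4. The mean log2 intensity of Pth1r with vehicle was 8.37, below the filter. It passed through the rosiglitazone arrays (9.44), which favours a difference. The phosphate transporter Slc20a1 had 339 and 109 under rosiglitazone and, under vehicle, 244 and 440. Nt5e, which makes adenosine from AMP, had 352 and 210 on the rosiglitazone arrays against 431 and 646 on the vehicle arrays, with no overlap but below the filter. Abcc6, the transporter mutated in pseudoxanthoma elasticum, lay under the floor on all 4 arrays.

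The integrin receptors of osteopontin gave no single direction over all their probe sets. The brightest probe sets of Itgav and Itgb5 were both lower with rosiglitazone. Itgav, the alpha v subunit, had 3686 and 3363 in treated aortas, compared with 7685 and 6756 under vehicle on 104386_f_at, a log2 difference of -1.03 ± 0.23 (standard error; limma, adjusted p = 0.105). Its other probe sets were dimmer and went the other way. That at 0.84, with overlap, passed the filter through the rosiglitazone arrays (mean log2 intensity 9.49). With vehicle it was below the filter (8.65). That at 1.19 did not pass the filter, and both its vehicle arrays were under the floor. The direction of Itgav thus rests on the probe set. Itgb5 had 6472 and 5738 under rosiglitazone and, under vehicle, 7610 and 7612, a difference of -0.32 (limma, adjusted p = 0.636), and -1.83 on its second probe set. Itgb3 overlapped and Itga5 had 743 and 150 with the drug, above 56 and 94 without it, and neither passed the filter. Acp5, the tartrate-resistant acid phosphatase of osteoclasts and macrophages, had 4924 and 4589 on the rosiglitazone arrays against 3591 and 2558 on the vehicle arrays (log2 difference 0.65, limma, adjusted p = 0.419). It was the only one of the 8 genes in this list past the filter to be higher with no overlap. Of all probe sets tested 19% were, so nothing is read from this count. Macrophage markers went the other way on these arrays (median -0.97). The matrix protein Sparc had -0.28 and the osteoclast protease Ctsk -0.34, both with overlap.

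In the list of further BMP ligands 5 genes passed the filter. Bmp6 had 2114 and 2172 in treated aortas, compared with 3872 and 2829 under vehicle, a log2 difference of -0.63 ± 0.29 (standard error; limma, adjusted p = 0.47). Its second probe set, which did not pass the filter, also had groups apart, at 99 and 109 with rosiglitazone, both under the floor, and 888 and 473 with vehicle. Bmp8a had -1.09 (limma, adjusted p = 0.686) and Gdf5, a ligand of joint and cartilage formation, 0.59 (limma, adjusted p = 0.791). The mean log2 intensity of Bmp8a with rosiglitazone was 8.24, below the filter, so it passed through the vehicle arrays (9.33), which favours a difference. With 1 array left out Bmp8a ran from -1.68 to -0.50, and Gdf5 was 0.09 with rosiglitazone replicate 2 left out and 1.09 with replicate 1 left out. Of the receptors, Acvr2b, an activin type II receptor that also binds BMPs, was higher at 2368 and 1992 under rosiglitazone and, under vehicle, 775 and 1290 (log2 difference 1.12, standard error 0.38, limma, adjusted p = 0.316). The endothelial receptors Acvrl1 and Eng had -0.01 and -0.22 with overlap. Bmpr1a, Bmpr1b, Bmpr2 and Acvr1 did not pass the filter.

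Among BMP antagonists, Nbl1, a DAN-family antagonist, had 1921 and 448 on the rosiglitazone arrays against 2755 and 2911 on the vehicle arrays. Its rosiglitazone arrays lay far apart, and the log2 difference of -1.61 (limma, adjusted p = 0.356) was -2.66 without rosiglitazone replicate 1 (limma, adjusted p = 0.013) and only -0.56 when rosiglitazone replicate 2 was dropped instead. Noggin (Nog), which sequesters BMPs, had 1202 and 1193 in treated aortas, compared with 747 and 966 under vehicle (0.50, limma, adjusted p = 0.726), and follistatin (Fst) had -0.48 (limma, adjusted p = 0.795). Inside the cell, the inhibitory Smad7 had 776 and 437 under rosiglitazone and, under vehicle, 1607 and 1348, a difference of -1.34 ± 0.47 (standard error; limma, adjusted p = 0.338). The BMP target Id2 had 6333 and 3489 on the rosiglitazone arrays against 7764 and 9518 on the vehicle arrays (-0.87, limma, adjusted p = 0.326, and -0.44 without rosiglitazone replicate 2), and Id4 had -1.42 (limma, adjusted p = 0.568), which was -0.25 with rosiglitazone replicate 1 left out and -2.59 with replicate 2 left out. Id4 passed the filter through the vehicle arrays (mean log2 intensity 9.98), since it was below the filter with rosiglitazone (8.56), which favours a difference. The targets Id1 and Id3, which BMPs induce in many cells, had 0.23 and 0.22 with overlap, so the Id genes did not go 1 way.

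Of the osteochondrogenic transcription factors and matrix genes, 6 of 13 measured passed the filter. Ihh, the Indian hedgehog ligand of growth plate cartilage, had 1166 and 1086 in treated aortas, compared with 863 and 550 under vehicle (log2 difference 0.71, limma, adjusted p = 0.627). Cbfb, the partner of the RUNX factors, had 7594 and 7650 under rosiglitazone and, under vehicle, 8501 and 7744, a gap of -0.09 (limma, adjusted p = 0.915). Msx1 had 0.06, Twist1 -0.11 and the cartilage collagen Col2a1 -0.12, each with overlap, and Runx1 lay under the floor on all 4 arrays.

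**Figure D5:**
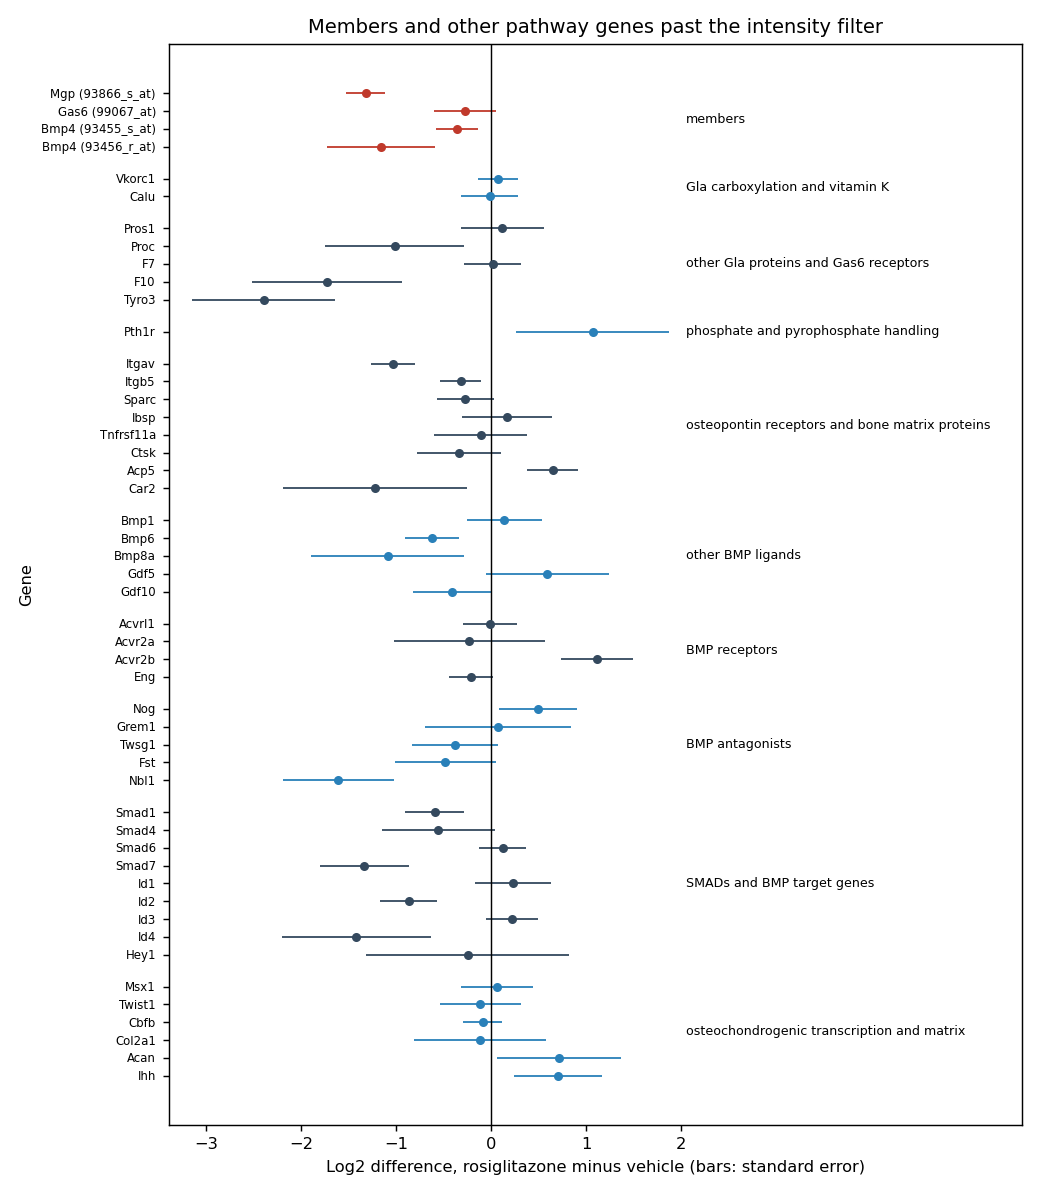
Log2 difference (rosiglitazone minus vehicle) with its standard error from limma for the 4 member probe sets past the filter (red) and the 45 further pathway genes past it, grouped by role and in alternating blues. Mgp at -1.32 has the shortest bar among the genes lower by over 1, and none (0) of the 45 passed the adjusted threshold.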

How the data were processed

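Per the labels, total RNA of mouse aorta was measured on 4 arrays, 2 per group. The deposited values are probe set intensities on a linear scale. The software and background correction are not given in the sources used here, and the deposited intensities share a trimmed mean (2% at each end) of 1501. Symbols came from the platform's probe table, updated by gene identifier. Of 12488 probe sets, 66 controls were left out. Intensities under 148 (20th percentile) were set to 148, log2 was taken, and 7134 probe sets with a mean at or above the 40th percentile were tested.

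Groups were compared with limma 3.58.1 in R 4.3.3 (lmFit, eBayes with intensity trend, two-sided, Benjamini-Hochberg over the 7134). The approach was also run on simulated data, in which the noise was set by intensity alone. That run cannot show whether calls from these 4 arrays hold. Arrays have no sequencing depth; precision is limited by there being 2 per group. Exact permutation of 2 against 2 arrays cannot go below p = 0.333. Probe sets ending in _s_at, _f_at, _i_at, _g_at or _r_at may share sequence with other transcripts or were chosen under relaxed design rules. The members and lists were chosen with earlier results of these data known. Named were all member probe sets, pathway genes past the threshold, up to 3 genes per role list with groups apart and the largest difference, the 5 probe sets closest to Mgp, and up to 3 markers per list. Other genes were named after their values were seen. Alternatives varied the filter, floor, scaling, trend, arrays and choice of probe set. Coordinates are given only for RefSeq promoters.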

Additional observations from a re-analysis of the deposited data

How the results depend on the processing

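The count of probe sets past the threshold, 26 as reported, was 0 without the filter and 0 with a floor at the 40th percentile. That floor also lets all 12422 non-control probe sets pass the filter. Of these, 1202 and 933 had an unadjusted p under 0.05 in limma in the respective settings. The count was 17 with each array centred on its median and 7 without the intensity trend. With 1 array left out it ran from 1 to 78. The count of further pathway genes, 0 as reported, ran from 0 to 1 with 1 array left out, and the 1 was Nbl1 without rosiglitazone replicate 1 (log2 difference -2.66, adjusted p = 0.013 in limma). It was 0 under the 9 other alternatives, among them the mean of all probe sets of a gene. Of the 9 member probe sets 7 had a difference below 0 as reported, and between 5 and 8 under the alternatives. Centring moved the gap between the groups by 0.08 on the log2 scale. The cause of these changes was not tested beyond what each setting does. No paired analysis was possible because the groups share no replicate number. Without detection calls, whether Bmp2, Alpl and Ahsg were above background cannot be judged.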

Other observations

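Some pathway genes below the intensity filter had groups that were apart, and they are given here as values, chosen after the values were seen. Dlx3, a homeobox factor expressed in bone and skin, had intensities of 706 and 1004 in treated aortas, compared with 172 and 157 under vehicle. Col11a1, a fibrillar collagen of cartilage, had 458 and 718 under rosiglitazone and, under vehicle, 202 and 257. Cd44, a receptor of hyaluronan that also binds osteopontin, went the other way, with 51 and 129 with rosiglitazone, both under the floor, and 400 and 442 with vehicle on 103005_s_at, while its other probe sets overlapped. The integrin subunit Itga5 had 743 and 150 on the rosiglitazone arrays against 56 and 94 on the vehicle arrays, both of the latter under the floor. Among others below the filter, Galnt3 and Smad5 were lower with groups apart (log2 differences -1.01 and -0.45), as was Nt5e above. Chrd was higher with groups apart (0.54), and Msx2 was apart only at or under the floor. How many probe sets below the filter had groups apart was not counted, so no direction is read from these genes. None of them was tested, since none passed the filter.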
